A study of Mus musculus with 4 samples.

Results

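Inflammatory monocytes, labelled Infl_Mono in the cell annotation deposited by the authors, made up 5322 of the 34447 CD45+ cells profiled from transplanted mouse melanomas, and all cells that carried this label were taken as members. The tumours were grown in Rag2-/- mice, which have no T or B cells of their own, from YUMM1.7-OVA RTT cells, a Braf V600E, Cdkn2a-/- melanoma line that expresses ovalbumin and had been made resistant to targeted therapy. On day 7 every mouse was given OT-1 CD8+ T cells, which recognise ovalbumin, and tumours were taken 72 h later, on day 10. Live CD45+ cells were sorted, fixed and profiled with a probe-based droplet assay. The CTRL library came from tumours of the line that carries mCherry and puromycin-resistance empty vectors. The IRF3/7 library came from tumours of a bulk-sorted line, not a clone, in which the SFFV promoter drives Irf3 and Irf7 cDNAs, so that the transgenes sit in the tumour cells and not in the monocytes. The COX2i library came from mCherry-line tumours of mice given celecoxib, an inhibitor of the prostaglandin-forming enzyme COX-2. In the COX2i+5-AZA group, mice bearing the same line received celecoxib together with 5-azacytidine, a DNA methyltransferase inhibitor. Each library pooled 3 tumours before sorting and each group had 1 library, so that no difference between groups has a replicate check and no p-value is given. Adult mice were used, matched for age and sex within an experiment where possible.

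Classical monocytes leave the bone marrow, enter inflamed or tumour tissue through the chemokine receptor CCR2 and can mature there into macrophages or antigen-presenting cells. Type I interferon binds IFNAR and activates the ISGF3 complex, which binds the interferon-stimulated response element (ISRE) in promoters of antiviral genes, while interferon-γ acts mainly at the γ-activated site (GAS). IRF3 and IRF7 are transcription factors that switch on type I interferon genes downstream of nucleic acid sensors. The class is described with 7 marker genes. Slfn4 belongs to the interferon-inducible Schlafen family, Rsad2 encodes the antiviral enzyme viperin and Ifit1bl1 is a member of the IFIT family. Saa3 and Hp (haptoglobin) are acute-phase genes, and Chil3 and Plac8 are expressed by classical monocytes.

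The promoters of the interferon-responsive members are shown because many hold the ISRE core. RefSeq promoters (250 bases before to 50 bases after the start, GRCm38.p6) were searched on both strands for the ISRE core, a pair of GAAA runs separated by any 2 bases, which was present in 3.44% of 32851 promoters. Of 6 marker genes with a promoter in the table, Rsad2, Ifit1bl1 and Saa3 held a match, and Slfn4, Chil3 and Plac8 held none. The windows of 4 genes with a match are printed in the direction of transcription, with the ISRE core, on either strand, in capitals. Rsad2, Ifit1bl1 and Isg15 define the antiviral programme discussed here, and Saa3 is the acute-phase marker with a match.
Rsad2 (chr12:26456541-26456594, minus strand): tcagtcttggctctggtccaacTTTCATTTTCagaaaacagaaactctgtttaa
Ifit1bl1 (chr19:34602041-34602094, minus strand): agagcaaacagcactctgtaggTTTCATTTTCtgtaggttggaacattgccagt
Isg15 (chr4:156200853-156200918, minus strand): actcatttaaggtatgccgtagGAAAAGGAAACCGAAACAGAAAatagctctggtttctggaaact
Saa3 (chr7:46715770-46715823, minus strand): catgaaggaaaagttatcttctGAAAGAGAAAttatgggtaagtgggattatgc
The match lies 120 bases upstream of the start in Rsad2, 104 bases in Ifit1bl1 and 125 bases in Saa3, and the 3 matches in Isg15 overlap. A second RefSeq promoter of Ifit1bl1 also held a match, 23 bases upstream of its own start. Among antiviral interferon genes with a promoter in the table, 19 of 35 held the ISRE core (54.3%), against 0 of 12 classical monocyte genes and 2 of 21 macrophage genes. A second motif, GAS (TTCNNNGAA), was present in 8.30% of all promoters and in 10 of 21 interferon-γ-skewed genes (47.6%). The ISRE core was present in 12 of those 21 genes (57.1%). Counted per gene, as in the lists, with a match in any of a gene's promoters, the ISRE core was present in 3.99% and GAS in 9.55% of 27025 genes. A match is a description of letters and was not tested as a binding site.

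Inflammatory monocytes were by far the most abundant cells in the IRF3/7 library and rare in CTRL. They made up 93 of 8953 cells in CTRL (1.04%, 95% Clopper-Pearson interval 0.839 to 1.27), 4335 of 6329 in IRF3/7 (68.5%, 67.3 to 69.6), 130 of 9133 in COX2i (1.42%, 1.19 to 1.69) and 764 of 10032 in COX2i+5-AZA (7.62%, 7.10 to 8.15). All intervals cover counting error only. The share in IRF3/7 was 65.9 times that in CTRL (53.7 to 81.9), and the share in COX2i+5-AZA was 7.33 times that in CTRL (5.91 to 9.19). The shares in COX2i and CTRL lay close together, with a ratio of 1.37 (1.04 to 1.81). The order differed when the cells were counted against the 3 monocyte classes alone. By label, inflammatory monocytes were then 66.9% of monocytes in CTRL (93 of 139, of which 55 held a UMI of the macrophage gene Fcrls), 94.3% in IRF3/7, 23.3% in COX2i and 16.3% in COX2i+5-AZA (764 of 4684). In the COX2i and COX2i+5-AZA libraries most monocytes carried the Monocyte_1 label, which was given to 394 and 3640 cells.

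**Figure D1:**
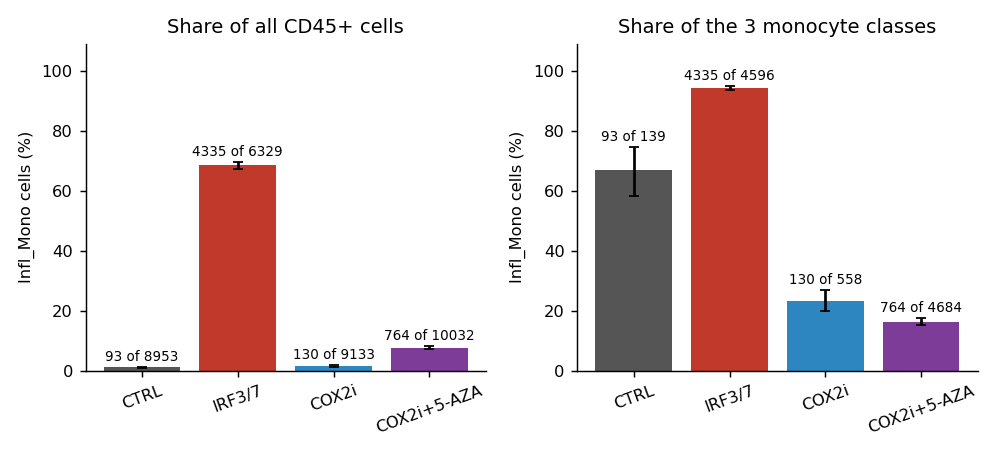
Share of cells labelled Infl_Mono in each library, as a percentage of all CD45+ cells (left) and of the 3 monocyte classes together (right), with 95% Clopper-Pearson intervals and the counts above each bar. The IRF3/7 bar reaches 68.5% on the left, while on the right CTRL is second with 66.9%.

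Depth differed between libraries. The median inflammatory monocyte held 4203 UMIs in CTRL, 3076 in IRF3/7, 3537 in COX2i and 4522 in COX2i+5-AZA, and the class summed to 484222, 14728501, 610706 and 3939945 UMIs. Levels are given as CPM, the UMIs of a gene scaled to the total of the class, so that 3 UMIs, the limit that a count of 0 allows, correspond to 6.20, 0.204, 4.91 and 0.761 CPM. The CTRL and COX2i values are therefore the least precise. In IRF3/7, 486 of the 4335 cells had 1000 detected genes or fewer, against 0, 4 and 14 cells in CTRL, COX2i and COX2i+5-AZA. Of the 5322 cells, 1635 (30.7%) shared a droplet barcode with a cell of another library, a share close to that of all cells (29.1%), as the 4 libraries were pooled in multiplexed droplets. No full barcode was shared.

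Each of the 7 markers was highest or second highest in the inflammatory monocytes among the classes with at least 50 cells, in every library. The classes were cut from these genes, so a high rank describes the class and does not check its label. Slfn4 stood at 213 CPM in CTRL, 4185 in IRF3/7, 659.9 in COX2i and 995 in COX2i+5-AZA. Its level in IRF3/7 was the highest, and the neutrophils of CTRL (275 CPM) and COX2i+5-AZA (1746 CPM) exceeded the inflammatory monocytes of their own libraries. Rsad2 stood at 2705, 1823, 1989.5 and 1175 CPM in the same order, highest in CTRL, and no other class in the same library reached it. Ifit1bl1 stood at 343, 737, 296 and 295 CPM and was exceeded in IRF3/7 by type 2 conventional dendritic cells (cDC2, 828 CPM). Saa3 stood at 279, 1426, 34.4 and 534 CPM, and the COX2i value lay below that of Monocyte_1 in the same library (46.7 CPM). In CTRL and COX2i+5-AZA, Saa3 was also second, to the Macro class (317 CPM) and to neutrophils (582 CPM). Hp stood at 456, 957, 432 and 602 CPM and was exceeded by neutrophils in CTRL (466 CPM) and COX2i+5-AZA (1166 CPM). Chil3, at 2849.9, 5112, 2075 and 4886 CPM, was highest in the inflammatory monocytes in every library. Plac8 stood at 1931, 7938, 4442 and 6572 CPM and was lowest in CTRL. In COX2i+5-AZA it was higher in Monocyte_3 (7841 CPM). Slfn4, Ifit1bl1 and Saa3 have close paralogs, and how the probes divide such families was not tested.

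**Figure D2:**
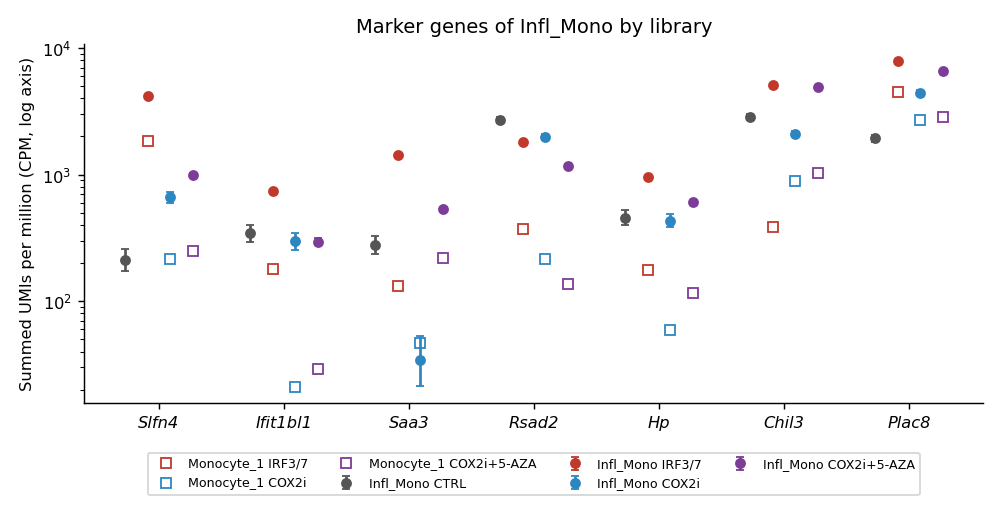
Levels of the 7 marker genes in inflammatory monocytes (filled circles with exact Poisson 95% intervals) and in Monocyte_1 cells (open squares) by library, in CPM on a log axis. CTRL Monocyte_1 (44 cells) is left out. Rsad2 is highest in CTRL, whereas Slfn4 and Plac8 are highest in IRF3/7, and Saa3 in COX2i lies below its Monocyte_1 square.

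The CTRL cells of the class were mixed. Fcrls, a gene of tissue macrophages, had a UMI in 55 of the 93 CTRL cells (median 5959 UMIs per cell) and not in the other 38 (median 3164). The split by Fcrls was chosen after its values were seen. The 55 cells held the macrophage gene Apoe at 44891 CPM, C1qa, a subunit of complement C1q, at 8112 CPM and Rsad2 at 3532 CPM. Chil3 stood in them at 949 CPM and Plac8 at 365 CPM. The 38 cells showed the reverse, with Apoe at 6514 CPM, C1qa at 326, Rsad2 at 184, Chil3 at 8647 and Plac8 at 6707 CPM. Summed over each group, Rsad2 was thus higher in the CTRL cells with Fcrls, and Chil3 and Plac8 in those without. Whether single cells held both was not counted. In all, antiviral genes took 3.34% of the UMIs of the 55 cells and 1.84% of those of the 38, and classical monocyte genes 2.03% and 5.27%.

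Because deeper cells are more likely to show a UMI of Fcrls, each cell was also thinned to 1500 UMIs. The split then gave 47 and 46 CTRL cells, with Rsad2 at 3787 and 609 CPM, Chil3 at 1560.3 and 8188 CPM and Plac8 at 596 and 5696 CPM. Macrophage transcripts were also counted in other CTRL classes. In thinned CTRL cells Fcrls had a UMI in 50.5% of inflammatory monocytes, 32 of 64 neutrophils and 13.7% of cDC2, with median depths of 4203, 3900 and 4106 UMIs, and Apoe reached 24383 CPM in neutrophils and 686 CPM in cDC2. Rsad2, by contrast, stood at 58.3 CPM in CTRL neutrophils, 32.7 in cDC2 and 20.3 in the C1q-high macrophages (TAM_C1q). Free RNA and doublets were not measured, and their part in this split was not tested.

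The other libraries were split in different proportions. A UMI of Fcrls was found in 66 of 130 COX2i cells, 139 of 764 COX2i+5-AZA cells and 35 of 4335 IRF3/7 cells. Antiviral genes took 4.64% of UMIs with and 5.29% without a UMI of Fcrls in IRF3/7, 2.98% and 3.25% in COX2i and 2.93% and 2.97% in COX2i+5-AZA. In cells thinned to 1500 UMIs the values were 4.69% with and 5.27% without in IRF3/7, 3.35% and 3.24% in COX2i, and 3.20% and 3.04% in COX2i+5-AZA, beside 3.55% and 1.87% in CTRL. Rsad2 was lower in the thinned cells without Fcrls in CTRL, COX2i (1465 against 2884 CPM) and COX2i+5-AZA (909 against 2250.0 CPM), and higher in IRF3/7 (1718 against 1200.0 CPM). Macrophage genes other than Fcrls took more of the UMIs of the Fcrls cells in all 4 libraries, from 3.24% against 0.885% in COX2i+5-AZA to 9.58% against 1.55% in CTRL.

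**Figure D3:**
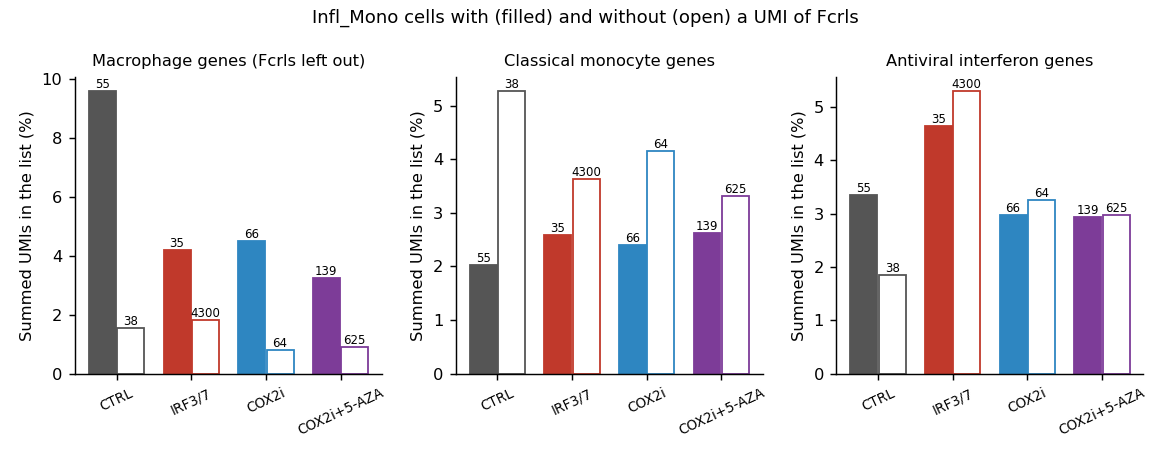
Share of summed UMIs (%) in macrophage, classical monocyte and antiviral genes for inflammatory monocytes with a UMI of Fcrls (filled bars) and without (open bars), with the number of cells above each bar. In CTRL the 38 cells without Fcrls have the most classical monocyte UMIs (5.27%) and the least antiviral UMIs (1.84%).

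The IRF3/7 library was compared with CTRL to describe what inflammatory monocytes expressed in tumours with forced IRF3 and IRF7. Slfn4 and some interferon-γ-skewed and MHC class II genes were higher in IRF3/7, with or without the Fcrls cells. The counts of macrophage, cell cycle, alarmin and classical monocyte genes changed without those cells. Fcrls is itself on the macrophage list and was picked after its values were seen. The change in macrophage genes without its cells, here and in later comparisons, therefore follows from that choice. A gene was counted as at least 2-fold higher or lower where its log2 ratio reached 1 in size and its interval excluded 0, among genes with at least 20 UMIs. Of 9996 genes, 412 were at least 2-fold higher (4.12%) and 1269 at least 2-fold lower (12.7%), with a median log2 ratio of -0.23. Scaling by size factors in place of totals raised all log2 ratios by 0.24, which gave 705 genes higher and 886 lower.

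Antiviral genes depended on which CTRL cells were counted. Over all cells, 12 of 44 were at least 2-fold higher and 0 lower (18 and 0 with size factors), with a median log2 ratio of 0.61. Without the cells that held a UMI of Fcrls, 31 of 44 were higher and 0 lower, with a median of 1.62, beside 3.07% and 5.91% of all genes higher and lower. Isg15, a ubiquitin-like antiviral protein, stood at 2071 CPM in CTRL and 5545 CPM in IRF3/7 (log2 ratio 1.42, 95% interval 1.33 to 1.51) and had a log2 ratio of 2.65 (2.37 to 2.94) without the Fcrls cells. Rsad2 turned direction, from -0.57 (-0.65 to -0.49) over all cells to 3.31 (2.71 to 3.99). Ifit3, another IFIT family gene, went from -0.08 (-0.18 to 0.03) to 4.12 (3.24 to 5.18). Slfn4 was higher either way, at 4.30 (4.02 to 4.59) over all cells and 3.65 (3.20 to 4.13) without those cells. The remaining CTRL cells number only 38 and hold 22 UMIs of Rsad2 and 10 of Ifit3.

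**Figure D4:**
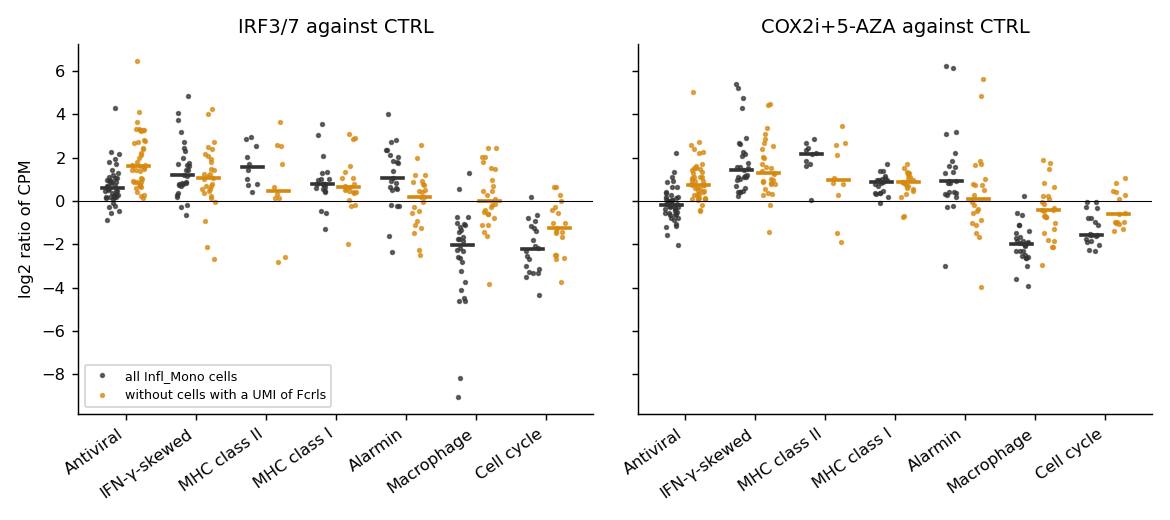
log2 ratio of CPM for each gene (points) of 7 lists in inflammatory monocytes, IRF3/7 against CTRL (left) and COX2i+5-AZA against CTRL (right), over all cells (dark) and without cells that held a UMI of Fcrls (orange). Bars mark the list medians and genes with under 20 UMIs are left out. The antiviral median moves from 0.61 to 1.62 on the left and from -0.18 to 0.75 on the right.

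Per cell, antiviral genes took the largest share of UMIs in IRF3/7. Antiviral genes took a median of 5.08% of a cell's UMIs in IRF3/7 (10th to 90th percentile 3.13 to 7.72), 2.29% in CTRL (1.01 to 5.31), 2.92% in COX2i (1.57 to 5.49) and 2.51% in COX2i+5-AZA (1.44 to 5.55). The level was not confined to the class, since Monocyte_1 cells had medians of 3.20% in IRF3/7 and 1.39% in both COX2i libraries. In cells thinned to 1500 UMIs, Slfn4 had a UMI in 94.6% of IRF3/7 cells, against 20.4% in CTRL, 36.8% in COX2i and 58.4% in COX2i+5-AZA. Before thinning the shares of Slfn4 were 98.3%, 40.9%, 56.9% and 81.0%. In thinned cDC2 of the same libraries the shares were 0.474% in CTRL (median depth 4106 UMIs), 52.4% in IRF3/7 (3137 UMIs), 1.07% in COX2i and 6.30% in COX2i+5-AZA.

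Irf7, which is itself induced by interferon, stood at 1295 CPM in CTRL, 3354 in IRF3/7, 1326 in COX2i and 1456 in COX2i+5-AZA, and at 644 in CTRL without the Fcrls cells. Irf3, which is expressed constitutively, stood at 28.9, 43.7, 34.4 and 38.8 CPM. Both genes are also the transgenes of the tumour line, and the assay did not separate endogenous from transgene RNA here. The ratio of Irf7 to Irf3 UMIs in IRF3/7 was 76.7 (71.0 to 83.0) in inflammatory monocytes and 25.5 (24.6 to 26.6) in the cells labelled Myofibrobl. In inflammatory monocytes of the libraries without the transgenes it was 44.8 in CTRL, 38.6 in COX2i and 37.5 in COX2i+5-AZA. In the Myofibrobl cells of CTRL it was 0.262. The part of transgene RNA in the monocyte levels was not tested.

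Many interferon-γ-skewed and MHC class II genes and some MHC class I genes were higher in IRF3/7. Among interferon-γ-skewed genes, 16 of 29 were at least 2-fold higher and 0 lower, with a median of 1.18. Cd274, which encodes the checkpoint ligand PD-L1, stood at 116 CPM in CTRL and 617 in IRF3/7 (2.42, 2.04 to 2.82). Socs1, an inhibitor of JAK kinases, stood at 107 and 419.8 CPM (1.97, 1.57 to 2.39), and at 1.01 (0.45 to 1.64) without the Fcrls cells. Of 21 MHC class I genes, 6 were at least 2-fold higher and 1 was lower, and with size factors 12 and 1. The class Ib genes H2-Q7 (66.1 and 779.8 CPM, 3.56, 3.06 to 4.11) and H2-Q6 (99.1 and 818 CPM) stood furthest apart, although they are near-identical copies that share sequence. Of 10 MHC class II genes, 6 were higher and 0 lower, and without the Fcrls cells 4 and 0. For interferon-γ-skewed genes the counts without those cells were 15 higher and 1 lower of 29. H2-Aa stood at 316 CPM in CTRL and 1815 in IRF3/7 (2.52, 2.29 to 2.76), and the class II transactivator Ciita stood at 24.8 and 81.5 CPM (1.72, 0.91 to 2.67), and at 0.12 (-0.81 to 1.25) without the Fcrls cells.

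Alarmin and acute-phase genes were higher in IRF3/7 for 12 of 23 members and lower for 2 over all cells, and higher for 4 and lower for 4 without the Fcrls cells. The neutrophil and monocyte alarmin S100a8 stood at 51.6 CPM in CTRL and 839 in IRF3/7 (4.02, 3.46 to 4.65). Saa3 had a log2 ratio of 2.35 (2.11 to 2.61), and Il1b, the inflammatory cytokine interleukin-1β, stood at 828 and 3383 CPM (2.03, 1.89 to 2.18). Without the Fcrls cells the log2 ratios were smaller, at 2.57 (1.89 to 3.35) for S100a8, 0.49 (0.24 to 0.76) for Saa3 and 0.86 (0.67 to 1.05) for Il1b. The decoy receptor Il1r2 had a log2 ratio of 3.25 over all cells and 2.30 without the Fcrls cells, where 22 of its UMIs were left in CTRL. Classical monocyte genes were higher for 6 of 19 members, among them Plac8 (2.04, 1.95 to 2.13, and 0.25 without the Fcrls cells), and lower for 4, but higher for 2 and lower for 6 without the Fcrls cells.

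Macrophage genes were lower in IRF3/7 for 24 of 28 members and higher for 1 over all cells. Without the Fcrls cells they were lower for 4 of 26 and higher for 6, with a median of -0.01. Fcrls is itself on the macrophage list, and this setting took out 55 of 93 CTRL cells but 35 of 4335 IRF3/7 cells. The smaller macrophage difference therefore follows from how the cells were chosen. Fcrls stood at 2135 CPM in CTRL and 4.07 CPM in IRF3/7, a log2 ratio of -9.03 (-9.43 to -8.66). The mannose receptor Mrc1 stood at 1708 and 77.2 CPM (-4.47, -4.60 to -4.34). Apoe, an apolipoprotein of lipid-handling macrophages, stood at 35414 and 5786 CPM (-2.61, -2.64 to -2.59). Without the Fcrls cells the log2 ratio was -0.78 (-1.51 to 0.06) for Mrc1 and -0.19 (-0.30 to -0.09) for Apoe. C1qa changed sign with the cells counted, from -2.18 (-2.24 to -2.13) to 2.04 (1.58 to 2.53) without the Fcrls cells. Cell cycle genes were lower for 14 of 20 members and higher for 0 over all cells, with a median of -2.24. Without the Fcrls cells 0 of 19 were called in either direction, with 38 CTRL cells left. Their median was then still -1.24, beside -0.41 for all genes. The proliferation marker Mki67 stood at 62.0 and 6.11 CPM (-3.34, -3.95 to -2.69), and 1 UMI of it was left in CTRL without the Fcrls cells.

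COX2i inflammatory monocytes held more MHC class II and fewer macrophage transcripts than those of CTRL. Of 6839 genes, 190 were at least 2-fold higher in COX2i (2.78%) and 217 lower (3.17%). MHC class II genes were higher for 6 of 8 members and lower for 0, with H2-Ab1 at 242 CPM in CTRL and 987 in COX2i (2.03, 1.74 to 2.33). The counts without the Fcrls cells were 4 of 8 higher and 0 lower. Among interferon-γ-skewed genes 9 of 27 were higher and 1 lower, and 15 of 25 and 0 without the Fcrls cells. Gbp2, an interferon-inducible GTPase, stood at 966 and 2548 CPM (1.40, 1.25 to 1.55). Nos2, the inducible nitric oxide synthase, stood at 72.3 and 13.1 CPM (-2.46, -3.78 to -1.33, and -3.25 without the Fcrls cells, with 16 and 3 UMIs), and Saa3 at 279 and 34.4 CPM (-3.02, -3.76 to -2.35). Macrophage genes were lower for 14 of 27 members and higher for 0, with Apoe at 35414 and 7280.1 CPM, and for 9 and 2 of 20 without the Fcrls cells. For antiviral genes, 1 of 44 was higher and 2 were lower over all cells, and 18 of 40 were higher and 0 lower without the Fcrls cells, beside 4.56% and 4.07% of all genes.

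COX2i+5-AZA differed from CTRL in antigen presentation and S100 genes. Of 8809 genes, 348 were at least 2-fold higher (3.95%) and 752 lower (8.54%). Size factors gave 516 higher and 605 lower. Interferon-γ-skewed genes were higher for 20 of 29 members and lower for 0, and MHC class II genes for 7 of 10 and 0. Gbp2 stood at 966 CPM in CTRL and 4116 in COX2i+5-AZA (2.09, 1.96 to 2.23). The serpin gene Serpina3g stood at 12.4 and 461 CPM (5.22, 4.09 to 6.67, and 4.41 without the Fcrls cells). Cxcl9, a chemokine that recruits CXCR3+ T cells, stood at 304 and 881 CPM (1.54, 1.30 to 1.78), but without the Fcrls cells its log2 ratio was -0.17 (-0.42 to 0.10). These values rest on few CTRL cells, as 3 of the 93 thinned CTRL cells held a UMI of Cxcl9 and 132 of its 147 UMIs came from the 38 cells without Fcrls. Macrophage genes were lower for 25 of 28 members and higher for 0, with Apoe at 2309.7 CPM (-3.94, -3.98 to -3.90, and -2.96 without the Fcrls cells), and lower for 8 and higher for 3 of 26 without the Fcrls cells. The MHC class II counts without those cells were 5 higher and 0 lower.

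Antiviral genes were higher in COX2i+5-AZA for 3 of 44 members and lower for 5 over all cells, and higher for 16 and lower for 0 without the Fcrls cells, beside 3.43% and 4.97% of all genes. Rsad2 had a log2 ratio of -1.20 (-1.29 to -1.11) over all cells and 2.25 (1.65 to 2.93) without them.

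The alarmins S100a8 and S100a9 were far above CTRL. S100a8 stood at 51.6 CPM in CTRL, 169 in COX2i and 3556 in COX2i+5-AZA (6.11 against CTRL, 5.54 to 6.73), and S100a9 at 14.5, 27.8 and 1069.8 CPM (6.21, 5.17 to 7.52). The log2 ratios without the Fcrls cells were 4.83 (4.15 to 5.61) for S100a8 and 5.60 (4.06 to 7.88) for S100a9, which had 3 UMIs left in CTRL. Both are also the most abundant genes of neutrophils, and the ratio of S100a8 to S100a9 UMIs was 3.32 (3.21 to 3.44) in the inflammatory monocytes and 0.879 (0.865 to 0.893) in the neutrophils of this library. The ratio in IRF3/7 inflammatory monocytes was 8.40 (7.95 to 8.87). The 9 neutrophil markers in the table summed to 504, 2049, 535 and 5276 CPM in the inflammatory monocytes of CTRL, IRF3/7, COX2i and COX2i+5-AZA, against 98462 CPM in COX2i+5-AZA neutrophils. The S100a8 to S100a9 ratio also varied among other COX2i+5-AZA classes, at 4.10 in Monocyte_1, 2.64 in TAM_C1q and 1.47 in Monocyte_3. The part of neutrophil RNA in the S100 levels was not tested.

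Adding 5-azacytidine to celecoxib was compared within the celecoxib-treated pair. Of 8823 genes, 198 were at least 2-fold higher in COX2i+5-AZA (2.24%) and 460 lower (5.21%). Alarmin genes were higher for 13 of 23 members and lower for 1, with Saa3 at 34.4 and 534 CPM (3.96, 3.34 to 4.65) and Nos2 at 13.1 and 211 CPM (4.01, 3.03 to 5.23). Interferon-γ-skewed genes were higher for 9 of 29 members and lower for 0. For antiviral genes 0 of 44 were called in either direction over all cells, and 1 was higher without the Fcrls cells. For MHC class II genes 0 of 10 were called in either direction, with or without the Fcrls cells, but the median log2 ratio was 0.76 over all cells, and with size factors 2 were higher. Macrophage genes were lower for 15 of 28 members and higher for 1, and cell cycle genes lower for 14 of 19 and higher for 0. Without the Fcrls cells, macrophage genes were lower for 0 and higher for 2 of 26, cell cycle genes lower for 1 and higher for 0 of 16, interferon-γ-skewed genes higher for 3 and alarmin genes higher for 9 and lower for 1 of 22, beside 2.13% of all genes higher and 2.12% lower. The cell cycle median was -1.54 over all cells and -0.75 without the Fcrls cells. Saa3 had a log2 ratio of 2.48 (1.87 to 3.18) without them. The eosinophil chemoattractant gene Ccl24 had 0 UMIs in COX2i and stood at 136 CPM in COX2i+5-AZA, a log2 ratio of at least 4.79 against the limit of 3 UMIs, and without the Fcrls cells it had 0 and 479 UMIs.

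The IRF3/7 and COX2i+5-AZA libraries held the most inflammatory monocytes. Some antiviral genes were higher in IRF3/7, and some interferon-γ-skewed genes were higher in COX2i+5-AZA. Of 10144 genes, 359 were at least 2-fold higher in IRF3/7 (3.54%) and 555 lower (5.47%). Antiviral genes were higher for 15 of 44 members and lower for 0, and without the Fcrls cells for 17 and 0, beside 4.13% of all genes higher and 3.94% lower. Ifi44 stood at 311 CPM in IRF3/7 and 77.7 in COX2i+5-AZA (2.00, 1.84 to 2.17), Isg15 at 5545 and 2642 CPM (1.07, 1.04 to 1.10), and Slfn4 at 4185 and 995 CPM (2.07, 2.03 to 2.12). Interferon-γ-skewed genes were higher for 1 of 29 members and lower for 6. Cxcl9 stood at 252 and 881 CPM (-1.80, -1.87 to -1.74) and Gbp2 at 1768 and 4116 CPM (-1.22, -1.25 to -1.19).

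Of 11 MHC class II genes 0 were called higher in IRF3/7 and 2 lower, with a median of -0.41, and without the Fcrls cells 0 and 1. H2-Aa stood at 1815 and 1734 CPM, and H2-Ab1 at 1729 CPM in both. Of 21 MHC class I genes 4 were higher in IRF3/7 and 1 lower, with H2-Q7 at 779.8 and 213 CPM (1.87, 1.77 to 1.98). The receptor for interleukin-33, Il1rl1, stood at 8.26 CPM in CTRL, 76.5 in IRF3/7, 1.64 in COX2i and 3.30 in COX2i+5-AZA, and its log2 ratio between IRF3/7 and COX2i+5-AZA was 4.54 (3.76 to 5.45). The matrix gene Spon1 stood at 16.5, 252, 37.7 and 38.3 CPM (2.71, 2.48 to 2.96). Both were highest in IRF3/7.

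Likeness to other classes differed between libraries. Pearson's r of log2(CPM + 10) across 8445 genes, which are not independent, was 0.970 between the inflammatory monocytes and Monocyte_1 of IRF3/7, and 0.975 between those of COX2i+5-AZA. Across libraries, the IRF3/7 and COX2i+5-AZA inflammatory monocytes had an r of 0.969. The CTRL profile was nearest to the COX2i one (0.954), and among other classes to the macrophage class TAM_H2Ab1 of COX2i+5-AZA (0.930), ahead of Monocyte_1 of COX2i (0.920). These values share libraries and depth and are given as a description.

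Against Monocyte_1 in the same library, inflammatory monocytes had higher levels of many antiviral genes and lower levels of most MHC class II genes. The classes were cut from these genes, so the differences are a description of the classes. In IRF3/7, 199 of 9940 genes were at least 2-fold higher (2.00%) and 398 lower (4.00%). In COX2i, 313 of 8254 were higher (3.79%) and 253 lower (3.07%). In COX2i+5-AZA, 282 of 10525 were higher (2.68%) and 400 lower (3.80%). Antiviral genes were higher for 17, 29 and 29 of 44 members and lower for 0 in the 3 libraries. Rsad2 stood at 1823 CPM in inflammatory monocytes and 374 in Monocyte_1 of IRF3/7 (2.28, 2.11 to 2.46), at 1989.5 and 217 CPM in COX2i (3.20, 3.03 to 3.37) and at 1175 and 137 CPM in COX2i+5-AZA (3.10, 3.03 to 3.17). Without the Fcrls cells of either class, the counts were 17 of 44, 26 of 43 and 29 of 44 higher and 0 lower, beside 1.98%, 4.23% and 2.45% of all genes higher.

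MHC class II genes were lower for 6 of 10, 9 of 10 and 7 of 11 members and higher for 0. H2-Aa stood at 1815 and 6613 CPM in IRF3/7 (-1.87, -1.91 to -1.82), 939.9 and 6712 CPM in COX2i (-2.84, -2.96 to -2.72) and 1734 and 5763 CPM in COX2i+5-AZA (-1.73, -1.77 to -1.70). Ciita was lower in the same libraries, with log2 ratios of -1.55, -2.14 and -1.22. Interferon-γ-skewed genes were higher for 1 of 29, 0 of 28 and 1 of 29 members and lower for 3, 6 and 2, and in COX2i without the Fcrls cells higher for 6 and lower for 5 of 28. Classical monocyte genes were higher for 9, 6 and 9 of 19 members and lower for 0, and in COX2i without the Fcrls cells higher for 10. Genes of nonclassical, vessel-patrolling monocytes were also higher than in Monocyte_1, with medians of 0.67, 0.94 and 1.25. With size factors 4, 6 and 9 of them were higher and 0, 1 and 0 lower.

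Alarmin genes were higher for 11 of 23, 8 of 20 and 11 of 23 members, and lower for 0, 4 and 0. Lcn2, the siderophore-binding protein lipocalin-2, stood at 396 and 15.5 CPM in IRF3/7 (4.67, 3.83 to 5.67), 40.9 and 5.99 CPM in COX2i (2.77, 1.66 to 4.00, or 6.11 with 1 Monocyte_1 UMI without the Fcrls cells) and 536 and 30.5 CPM in COX2i+5-AZA (4.14, 4.01 to 4.27). Nos2 was 2-fold lower only in COX2i, where it stood at 13.1 and 152 CPM (-3.53, -4.76 to -2.53). Macrophage genes were higher for 0 of 27, 13 of 27 and 3 of 28 members and lower for 5, 0 and 1 in IRF3/7, COX2i and COX2i+5-AZA. Without the Fcrls cells of either class, 0 were higher in any of the 3 libraries and 5 of 26, 9 of 23 and 11 of 27 were lower. Of all genes 4.03%, 6.57% and 6.84% were then lower. Fcrls is itself on the macrophage list, so fewer higher macrophage genes follow from leaving out its cells. The difference in direction was not tested.

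Cxcl9 and Cxcl10, ligands of the same receptor CXCR3, differed in their balance between the classes. Cxcl10 was higher in inflammatory monocytes than in Monocyte_1 of all 3 libraries, at 1892 and 728 CPM in IRF3/7 (1.38, 1.25 to 1.51), 1459 and 439.6 CPM in COX2i (1.73, 1.59 to 1.87, and 2.40 without the Fcrls cells) and 1589 and 614 CPM in COX2i+5-AZA (1.37, 1.33 to 1.42). Cxcl9 was lower in IRF3/7, at 252 and 554 CPM (-1.13, -1.29 to -0.98), and in COX2i, at 485 and 1989 CPM (-2.04, -2.21 to -1.87, and -0.94 without the Fcrls cells), and was close in COX2i+5-AZA, at 881 and 1091 CPM (-0.31, -0.36 to -0.26). In thinned cells of IRF3/7, 43.0% of inflammatory monocytes had a UMI of Cxcl10 without one of Cxcl9, and 3.95% the reverse. The same shares were 25.8% and 0% in CTRL and 27.1% and 10.5% in COX2i+5-AZA, and in COX2i the 28.8% with Cxcl10 alone was also the larger. In Monocyte_1, Cxcl10 without Cxcl9 was again the larger share in IRF3/7 (23.8% and 7.17%), while Cxcl9 without Cxcl10 was larger in COX2i (36.0% and 9.19%) and COX2i+5-AZA (25.7% and 14.5%). Inflammatory monocytes with both made up 3.23%, 7.61%, 14.4% and 20.9% in CTRL, IRF3/7, COX2i and COX2i+5-AZA. Of the T and NK cell cytokine Il15, the levels were 100.4 and 29.7 CPM in IRF3/7 (1.76, 1.14 to 2.46), 86.8 and 22.2 CPM in COX2i (1.97, 1.34 to 2.62) and 67.5 and 17.4 CPM in COX2i+5-AZA (1.96, 1.72 to 2.19). Tnfsf10, which encodes the death ligand TRAIL, had log2 ratios of 1.91, 1.65 and 2.40.

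**Figure D5:**
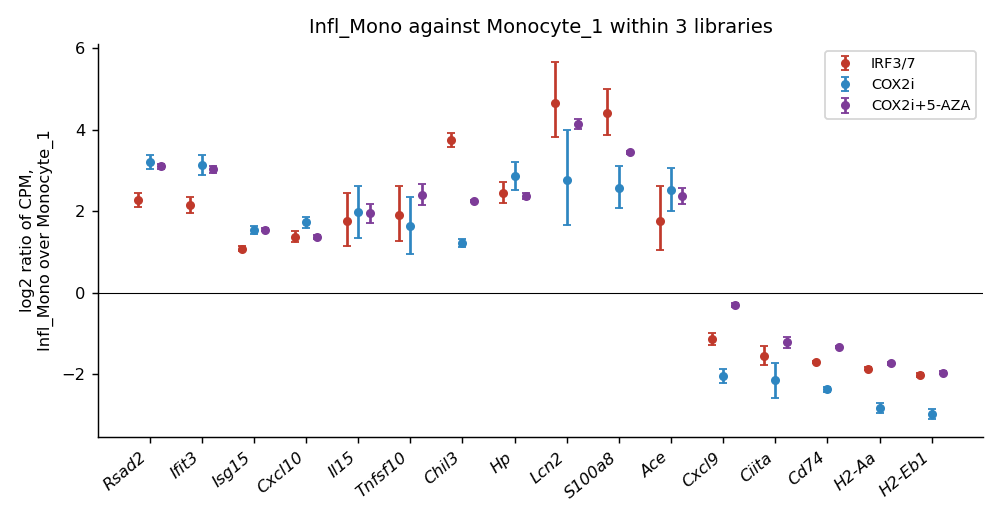
log2 ratio of CPM between inflammatory monocytes and Monocyte_1 cells of the same library for 16 genes, with exact 95% intervals. Interferon, classical monocyte and alarmin genes lie above 0 in the 3 libraries, and Cxcl9, Ciita and MHC class II genes lie below 0, from -0.31 for Cxcl9 in COX2i+5-AZA to -2.98 for H2-Eb1 in COX2i. Ace, a gene of nonclassical monocytes, is also plotted.

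Monocyte_3 was large enough to compare in COX2i+5-AZA only. Its cells held the genes of nonclassical, vessel-patrolling monocytes, which were lower in inflammatory monocytes for 11 of 12 members and higher for 0. Of 8758 genes, 538 were at least 2-fold higher in inflammatory monocytes (6.14%) and 493 lower (5.63%). Ace, the angiotensin-converting enzyme gene, stood at 112 CPM in inflammatory monocytes and 1152 in Monocyte_3 (-3.36, -3.54 to -3.18). Nr4a1, a nuclear receptor that nonclassical monocytes need, stood at 579 and 2297 CPM (-1.99, -2.09 to -1.89). Antiviral genes were higher for 25 of 44 members and lower for 0, and classical monocyte genes for 10 of 19 and lower for 1. Plac8, one of the markers of the class, was not among them, at 6572 and 7841 CPM (-0.25, -0.30 to -0.21).

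TAM_H2Ab1 was the macrophage class large enough to compare in IRF3/7. Of 10144 genes, 708 were at least 2-fold higher in inflammatory monocytes (6.98%) and 1667 lower (16.4%). Classical monocyte genes were higher for 15 of 19 members and lower for 0, with Chil3 at 5112 and 185 CPM (4.79, 4.64 to 4.94). Macrophage genes were lower for 18 of 28 members and higher for 1, with C1qa at 1364 and 8707 CPM (-2.67, -2.70 to -2.64). Cell cycle genes were lower for 19 of 20 members, with Mki67 at 6.11 and 94.9 CPM (-3.96, -4.33 to -3.59). Antiviral genes were higher for 11 of 44 members and lower for 0, and MHC class II genes were lower for 1 of 10, or 3 without the Fcrls cells.

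NK cell markers were low in the inflammatory monocytes, and macrophage genes differed between libraries and were highest in CTRL. The 10 NK cell markers summed to 0, 61.5, 9.82 and 29.7 CPM in CTRL, IRF3/7, COX2i and COX2i+5-AZA, against 35368 CPM in IRF3/7 NK cells. Of the 9 neutrophil markers, Ly6g and Retnlg were at 0 in CTRL and, with Cxcr2, in COX2i, and 0 markers were at 0 in IRF3/7 and COX2i+5-AZA. The 30 macrophage genes summed to 78109 CPM in CTRL, 18526 in IRF3/7, 33731 in COX2i and 14705 in COX2i+5-AZA. In the TAM_C1q cells they summed to 103202 CPM in CTRL, 69165 in IRF3/7 (7 cells), 66254 in COX2i and 64489.9 in COX2i+5-AZA. The macrophage sum was thus highest in the library with the highest Rsad2.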

How the data were processed

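CD45+ cells of 4 libraries, 1 per group, were profiled with a multiplexed probe-based assay. The authors counted UMIs with Cell Ranger 7.1.0 on mm10 probes, filtered cells, removed ribosomal and mitochondrial genes, integrated the libraries with those of other experiments and named cell classes from clusters. The deposited counts are UMIs, not normalised, and the class names come from the deposited annotation. Because classes were cut from these genes, differences between classes are descriptions.

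UMIs were summed per class and library and scaled to CPM. Ratios have exact conditional 95% intervals, shares Clopper-Pearson and sums exact Poisson intervals, which cover counting error only. A gene with at least 20 UMIs in the pair was called where the log2 ratio reached 1 in size and the interval excluded 0. A count of 0 was set to 3 UMIs. The 3 comparisons with CTRL share that library. Cells were thinned to 1500 UMIs for shares. No doublet caller was run, and cells above the 99th percentile of UMIs were left out as an alternative. Probes of paralogous families (Slfn, Ifit, Gbp, H2-Q, Ly6) may share targets.

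Members, gene lists and tests were chosen with earlier results of these data known. Of 395 list genes, 372 were in the table. Genes were named by size of change among called genes and from the lists, and Fcrls and the comparisons without its cells, the alternatives for the class comparisons, Pf4 and Ppbp were chosen after values were seen. The calculations were tested on simulated data and used Python 3.11.15, numpy 2.4.6, scipy 1.17.1, pandas 2.3.3 and matplotlib 3.10.9. Some items are not reported here.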

Additional observations from a re-analysis of the deposited data

Results flagged for a closer look

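Pf4 and Ppbp, chemokine genes of platelets, of which Pf4 is also expressed by macrophages, differed in direction between libraries in the comparison of inflammatory monocytes with Monocyte_1, and this difference was not tested. The log2 ratio of Pf4 was -1.74 in IRF3/7 and 2.16 in COX2i. Pf4 had 290 UMIs in 40 of 130 COX2i inflammatory monocytes and 147 UMIs in 22 of 251 IRF3/7 Monocyte_1 cells. Without the cells that held a UMI of Fcrls its log2 ratio in COX2i was -1.15, in the same direction as in IRF3/7. The log2 ratio of Ppbp was -4.62 in IRF3/7 and 4.56 in COX2i. Of its 43 UMIs in COX2i inflammatory monocytes 41 came from 1 cell, and of its 45 UMIs in IRF3/7 Monocyte_1 38 came from 1 cell.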

How the results depend on the processing

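Leaving out the cells with a UMI of Fcrls, a setting added after seeing the data, was the one alternative under which called log2 ratios of the genes named here turned direction (17 of 250 values). Rsad2 in IRF3/7 against CTRL, not called over all cells, went from -0.57 to 3.31. Against CTRL these were, in IRF3/7, C1qa (2.04) and Hp (-0.56), and in COX2i+5-AZA, C1qa (1.48), Cxcl9 (-0.17), Ifit3 (2.70), Mki67 (1.05) and Rsad2 (2.25). Between COX2i+5-AZA and COX2i they were C1qa (0.95), Mrc1 (0.87) and Pf4 (0.73), and between IRF3/7 and COX2i+5-AZA Pf4 (0.45). Against Monocyte_1 in COX2i they were Apoe (-0.15), Ifi44 (-0.52), Mrc1 (-1.95) and Pf4 (-1.15), and against Monocyte_3 Mrc1 (-0.15) and Pf4 (-0.37). Counts of lower genes without these cells were 584 (IRF3/7), 141 (COX2i) and 404 (COX2i+5-AZA) against CTRL, 173 between COX2i+5-AZA and COX2i, and 451 (COX2i) and 705 (COX2i+5-AZA) against Monocyte_1. A further 127 of the 250 log2 ratios kept their direction but moved beyond the limit of the check. In thinned cells 119 of 259 moved in this way, with mean per-cell CPM 110 of 261 and with size factors 86 of 261.

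Size factors gave 705 genes higher in IRF3/7 against CTRL, 310 higher and 220 lower against Monocyte_1 in IRF3/7, and 1100 higher and 1071 lower against TAM_H2Ab1. A minimum of 100 UMIs gave fewer calls by construction: 839 lower in IRF3/7, 44 higher and 52 lower in COX2i and 275 lower in COX2i+5-AZA against CTRL, 122 lower between COX2i+5-AZA and COX2i, 295 lower between IRF3/7 and COX2i+5-AZA, 142 higher and 88 lower against Monocyte_1 in COX2i, 266 lower against Monocyte_3 and 1038 lower against TAM_H2Ab1. Mean per-cell CPM gave 680 higher in IRF3/7, 286 higher and 429 lower in COX2i and 540 higher in COX2i+5-AZA against CTRL, 467 higher between COX2i+5-AZA and COX2i, 572 higher between IRF3/7 and COX2i+5-AZA, and, against Monocyte_1, 476 higher and 693 lower in IRF3/7, 641 lower in COX2i and 801 lower in COX2i+5-AZA. The cause was not tested. Thinned cells, which hold fewer UMIs, gave 651 lower in IRF3/7, 123 higher and 121 lower in COX2i, 366 lower in COX2i+5-AZA against CTRL, and 205 lower between COX2i+5-AZA and COX2i. The share among the 3 monocyte classes was 66.9% in CTRL, 94.3% in IRF3/7, 23.3% in COX2i and 16.3% in COX2i+5-AZA. The other 132 values were counts within 1.5 times the reported one or shares within its interval. No paired analysis was possible because there is 1 library per group and the results come from no test. The 93 CTRL and 130 COX2i cells limit low genes most.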

Other observations

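3 further genes were higher in IRF3/7 and COX2i+5-AZA than in CTRL. Ptgs2, which encodes the celecoxib target COX-2, stood at 145 CPM in the inflammatory monocytes of CTRL, 522 in IRF3/7, 192 in COX2i and 678 in COX2i+5-AZA. Without the Fcrls cells it stood at 226, 524, 221 and 738 CPM. Il27, a cytokine subunit made by myeloid cells, stood at 20.7, 83.6, 47.5 and 83.8 CPM, and 1 UMI of it was left in CTRL without the Fcrls cells. Ly6a, an interferon-inducible surface protein gene named after its values were seen, stood at 328, 4210.1, 915 and 2740.1 CPM (268 in CTRL and 1311 in COX2i without the Fcrls cells), and had a UMI in 22.6%, 91.3%, 46.4% and 82.2% of thinned cells.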
